A study of Mus musculus with 6 samples.

Results

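The genes that encode the subunits of AP-1 were examined in ATAC-seq peak lists of mouse white preadipocytes. ATAC-seq uses the transposase Tn5 to cut and tag open chromatin. The loci were those of the FOS family (Fos, Fosb, Fosl1 and Fosl2), the JUN family (Jun, Junb and Jund) and the BATF family (Batf, Batf2 and Batf3). A locus was the gene body in GENCODE M21 and 30 kb on either side of it, on the mm10 (GRCm38) build. Of close to 300000 listed summits per library, the 10 loci held 326, 312 and 317 in wild type (WT) replicates 1, 2 and 3, and 341, 349 and 321 in double knockout (DKO) replicates 1, 2 and 3. The summits were compared in windows that reach 250 bp to either side of a summit, and the loci held 166 of the 179249 windows of the genome. Of these windows, 16 were promoter windows, centred within 1 kb of a start of the member gene, and 150 lay in the flanks or gene bodies.

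The 3 WT and 3 DKO libraries came from undifferentiated preadipocytes (day 0) of inguinal white adipose tissue. The strain is C57BL/6 in the labels of all 6 libraries, while the study names its DKO line B6.Cg-Hmgn2tm1.1Mbus Hmgn1tm1Mbus/Mmjax. The mice were 8 to 12 weeks old per the study's methods. DKO cells lack Hmgn1 and Hmgn2, which encode nucleosome binding proteins, and WT cells carry both genes. Both kinds of culture were grown on collagen-coated plates. The labels do not say whether replicates came from separate animals, so p-values measure the spread between these libraries, which may be technical. No batch or date was given.

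AP-1 is a dimer of leucine zipper proteins that binds the sequence TGAGTCA, or TGACTCA, in promoters and enhancers. FOS proteins need a JUN partner to bind DNA, JUN proteins can pair with each other, and BATF proteins pair with JUN and lack the activation domains of FOS. Fos, Fosb, Jun and Junb are immediate-early genes, which serum and growth factors switch on without new protein synthesis. Fosl2 encodes FRA2 and Fosl1 encodes FRA1. AP-1 is known for its part in proliferation of fibroblasts and for restraint of adipocyte differentiation.

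The promoters of the members differed in the sites they carry, and the sequences shown are those of members with a serum response box, a variant or full AP-1 site, a cAMP response element, or a TATA box close to the start. They were read from the GRCm38 genome along the gene's own strand, with the matched sites in capitals. Positions count from the first transcribed base. Serum response (CArG) boxes were found upstream of Fos at -309 and of Fosb at -266. Such a box was found in 2.93% of 21755 promoters of protein-coding genes (500 bp before to 100 bp after the start). The capitals also mark GC boxes (GGGCGG, or CCGCCC on the other strand) and TATA boxes (TATAAA). The Jun promoter carried TGACATCA, a variant AP-1 site bound by JUN and ATF2 dimers, at -45, and 4.25% of promoters held this site on either strand. The Jund promoter carried the cAMP response element TGACGTCA at -214, which 2.89% of promoters held. The AP-1 sequence itself was in 1 of the 10 member promoters, that of Fosl2, at +54, in the 5′ untranslated part, against 8.41% of all promoters. A match is only a match of letters in that stretch.
Fos, chr12:85473570-85473869, plus strand: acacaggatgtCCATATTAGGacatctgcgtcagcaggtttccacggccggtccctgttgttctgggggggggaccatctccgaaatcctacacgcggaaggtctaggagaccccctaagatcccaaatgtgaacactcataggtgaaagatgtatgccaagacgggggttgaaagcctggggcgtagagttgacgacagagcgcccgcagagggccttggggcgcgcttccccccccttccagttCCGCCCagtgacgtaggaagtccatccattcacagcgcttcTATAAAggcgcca
Fosb, chr7:19310242-19310341, minus strand: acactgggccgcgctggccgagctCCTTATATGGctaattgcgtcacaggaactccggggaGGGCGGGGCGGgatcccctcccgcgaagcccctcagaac
Jun, chr4:95052223-95052322, minus strand: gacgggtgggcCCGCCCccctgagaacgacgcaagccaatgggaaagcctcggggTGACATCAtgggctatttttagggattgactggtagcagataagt
Junb, chr8:84978719-84978778, minus strand: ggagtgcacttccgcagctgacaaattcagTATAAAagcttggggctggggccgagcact
Jund, chr8:70698724-70698753, plus strand: ccccacccccaTGACGTCAacccacaatgc
Fosl2, chr5:32135843-32135871, plus strand: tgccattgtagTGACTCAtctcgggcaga

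In the flanks, 35 of 150 windows held the AP-1 sequence. Of the 111 flanking windows farther than 1 kb from any start, 29 held it (26.1%), against 31.3% of all such windows of the genome. Of the 39 at the starts of other genes, 6 held it (15.4%), against 11.7% of all windows within 1 kb of a start. Both strands were searched. The stretches below carry such sites, in capitals, within the loci of the subunits themselves. That upstream of Junb held 3 sites and those upstream of Fosl2 and in an intron of Batf3 held 2 each.
Junb, 7021 bp upstream, chr8:84985642-84985772, minus strand: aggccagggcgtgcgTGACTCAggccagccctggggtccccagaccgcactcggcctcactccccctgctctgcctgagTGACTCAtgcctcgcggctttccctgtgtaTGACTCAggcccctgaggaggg
Fosl2, 11957 bp upstream, chr5:32123747-32123808, plus strand: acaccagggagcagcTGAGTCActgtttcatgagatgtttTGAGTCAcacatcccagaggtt
Batf3, 4898 bp into the gene, chr1:191103043-191103170, plus strand: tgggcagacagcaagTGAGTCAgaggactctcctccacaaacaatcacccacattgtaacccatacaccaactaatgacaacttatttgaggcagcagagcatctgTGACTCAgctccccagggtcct
Jund, 16559 bp upstream, chr8:70682311-70682357, plus strand: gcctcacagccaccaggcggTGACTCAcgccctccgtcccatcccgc
Fosb, 7044 bp upstream, chr7:19316980-19317026, minus strand: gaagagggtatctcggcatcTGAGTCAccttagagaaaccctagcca
Fosl1, 1285 bp into the gene, chr19:5448835-5448881, plus strand: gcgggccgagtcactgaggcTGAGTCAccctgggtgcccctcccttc

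The promoters of the FOS and JUN genes were open in every library, and those of the BATF genes were barely listed. The measure was the deposited fold enrichment, the ratio of the Tn5 cut sites piled up at a summit to those of a background taken around it in the same list (each plus 1). The highest promoter window of Fos, Fosb, Fosl1, Fosl2, Jun, Junb and Jund had a summit in all 6 libraries. The promoter window of Batf was listed in 2 libraries, as were those of Batf2 and Batf3. A missing summit means that the window fell below the end of that list or that no separate summit was listed there, not that it was closed.

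Fosl2 and Jun had the highest promoters. At the Fosl2 start (chr5:32135545-32136045), fold enrichment was 10.3, 11.2 and 9.85 in the WT libraries, in the order of the replicate numbers, and 10.98, 10.3 and 9.96 in the DKO libraries. The genotypes overlapped, with means of 10.4 ± 0.666 and 10.4 ± 0.523 (SD, n = 3). By p, this summit ranked between 1200 and 5340 in the 6 lists. On the quantile-normalized log2 scale used for all tests, the change (DKO minus WT) was 0.18 ± 0.16 (SE; limma adjusted p = 0.678). It was 0.022 without WT replicate 3, 0.34 without WT replicate 2, 0.00079 with no scaling between libraries and 0.0083 for the pileup of cut sites. The neighbouring Fosl2 window 599 bp upstream ranged from 5.05 to 6.10, and that 655 bp downstream was listed in 5 libraries at 2.19 to 3.05.

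At the Jun start (chr4:95051952-95052452), fold enrichment was 8.81, 9.33 and 9.49 in WT and 11.8, 10.9 and 10.7 in DKO. All DKO libraries lay above all WT libraries, with means of 11.1 ± 0.612 and 9.21 ± 0.353 (SD, n = 3). The ranks by p were 3765, 2442 and 2725 in WT and 1011, 1475 and 1721 in DKO, so the summit stood nearer the top of each DKO list. The change was 0.45 ± 0.14 on the log2 scale, with an unadjusted limma p of 0.00904 that did not pass after adjustment over all windows (limma adjusted p = 0.220). With no scaling it was 0.27. The pileup of cut sites at the same summit was 266, 225 and 371 in WT and 312, 301 and 212 in DKO, and overlapped. On the quantile-normalized pileup the change was 0.084 (limma adjusted p = 0.690). The local background under the Jun summit was 29.3, 23.2 and 38.2 in WT and 25.4, 26.8 and 18.9 in DKO. The window 573 bp upstream of the Jun start had a change of 0.20 ± 0.24 (limma adjusted p = 0.760). The one 521 bp downstream held filled values and gave 0.60 ± 0.38.

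Junb, which encodes a weaker activator than Jun, had a low fold enrichment at its start (chr8:84978460-84978960). The values were 3.72, 3.73 and 4.29 in WT and 4.03, 4.02 and 4.84 in DKO. The deposited values overlapped, while the normalized values did not, and the change was 0.29 ± 0.27 (limma adjusted p = 0.694). The second Junb window, 833 bp upstream, ranged from 3.07 to 4.76. Jund, the JUN gene that most cells express steadily, had values of 5.83, 7.95 and 7.24 in WT and 7.49, 8.16 and 7.31 in DKO at the window 274 bp upstream of its start (chr8:70698425-70698925). The groups overlapped, with a change of 0.32 ± 0.19 (limma adjusted p = 0.475).

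Fos had nearly the same fold enrichment in all libraries at its start (chr12:85473637-85474137), with 4.61, 4.68 and 4.72 in WT and 4.63, 5.07 and 4.78 in DKO. The change was 0.20 ± 0.23 (limma adjusted p = 0.752), and the groups overlapped. Fosb, which shares the serum response box with Fos, was lower in DKO in the deposited values at the window 317 bp upstream of its start (chr7:19310118-19310618), with 4.80, 5.03 and 5.19 in WT and 4.14, 3.70 and 3.09 in DKO. The deposited values did not overlap, but the normalized values did, and the change was -0.32 ± 0.26 (limma adjusted p = 0.640). The pileup there was 89, 82 and 127 in WT and 65, 62 and 39 in DKO, a change of -0.61 on that scale (limma adjusted p = 0.140). With the p of the summit as the measure, the change was -0.93 ± 0.26 (limma unadjusted p = 0.00398, adjusted p = 0.233). A second Fosb promoter window, 1296 bp downstream and near another annotated start of the gene, held filled values (change 0.26 ± 0.41).

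Fosl1, whose product FRA1 is a FOS protein without a strong activation domain, was listed at 8.90, 8.71 and 10.7 in WT and 7.66, 8.86 and 6.70 in DKO at the window 372 bp into the gene (chr19:5447669-5448169). These overlapped, and the change was -0.098 ± 0.14 (limma adjusted p = 0.808). It was -0.38 ranked by p, -0.29 with no scaling and -0.29 for the pileup (limma unadjusted p = 0.0412, adjusted p = 0.377), and between -0.16 and -0.043 with 1 library left out. The BATF genes act chiefly in lymphocytes and dendritic cells. Batf was listed at 4.09 in WT replicate 1 and 3.08 in DKO replicate 1, Batf2 at 3.42 in WT replicate 2 and 4.26 in DKO replicate 3, and Batf3 at 3.21 and 3.81 in DKO replicates 2 and 3. Each of these rested on a pileup of 10 to 13 cut sites, the level at which the lists end, so no difference between genotypes was detectable there.

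**Figure D1:**
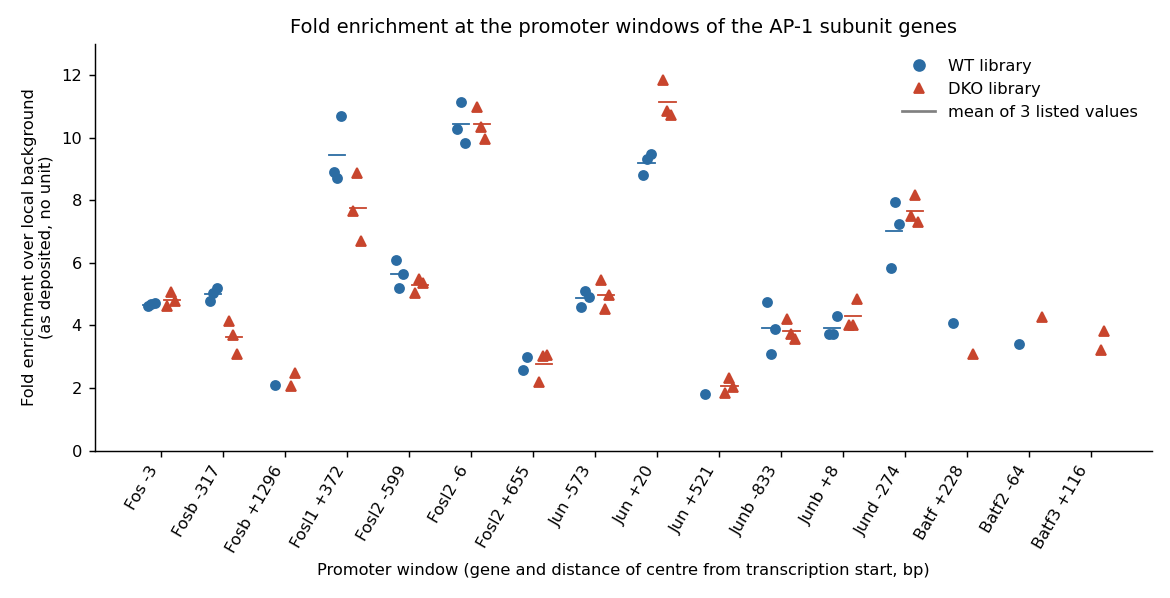
Deposited fold enrichment (vertical axis, no unit) at the 16 promoter windows, for each WT library (circles) and DKO library (triangles), with a bar at the mean where all 3 libraries of a genotype were listed. Jun at +20 has all DKO values above WT, Fosb at -317 all below, and the BATF genes have 2 points each.

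Of the 16 promoter windows, 0 passed the adjusted threshold in limma, where 0.0597% of all windows passed. The change was positive in 13 of them, where 63.9% of all windows within 1 kb of a start were positive, but 6 hold filled values, among them that of Batf3. Of the 10 listed in all 6 libraries, 8 were positive with a median of 0.19, where 55531 of the 103986 such windows of the genome were positive. At an unadjusted limma p under 0.05, 1 promoter window was higher (Jun, above) and 0 were lower, where 5.68% of all windows were higher and 6.1% lower. The median change of the 16 was 0.20, against 0.085 for all 30377 windows within 1 kb of any start and 0.010 for all windows.

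Fos and JUN family promoters and that of Fosl2 stood far higher by the number of cut sites than by fold enrichment. Among 14563 protein-coding genes with a promoter window, the Fos promoter stood at percentile 14.8 by fold enrichment and at 84.8 by pileup. Junb stood at 11.2 and 78.9 and Jund at 28.7 and 79.5. Fosb stood at 12.4 and 53.0 and Fosl1 at 35.3 and 59.7, near the middle by pileup. Batf (1.02 and 1.13), Batf2 (1.70 and 1.13) and Batf3 (0.927 and 3.54) were near the bottom by both. Jun stood at 43.4 and 98.0 and Fosl2 at 44.7 and 96.1, so that both were among the most cut promoters of these cells. The local background, which is the divisor of the fold enrichment, stood at percentile 99.97 at Fos, 99.96 at Junb, 99.9 at Jun, 99.7 at Fosl2, 99.0 at Jund and 98.5 at Fosb. In cut sites, the mean background was 33.0 at the Fos start and 32.6 at the Junb start, where the commonest value in the 6 lists lay between 2.05 and 2.58. At Fosl1 the background percentile was 86.6, and at Batf, Batf2 and Batf3 it was 11.3, 0.192 and 20.2. The peak caller takes this background from a stretch of the same library around the summit, so a high value means that cuts were dense around the summit as well.

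**Figure D2:**
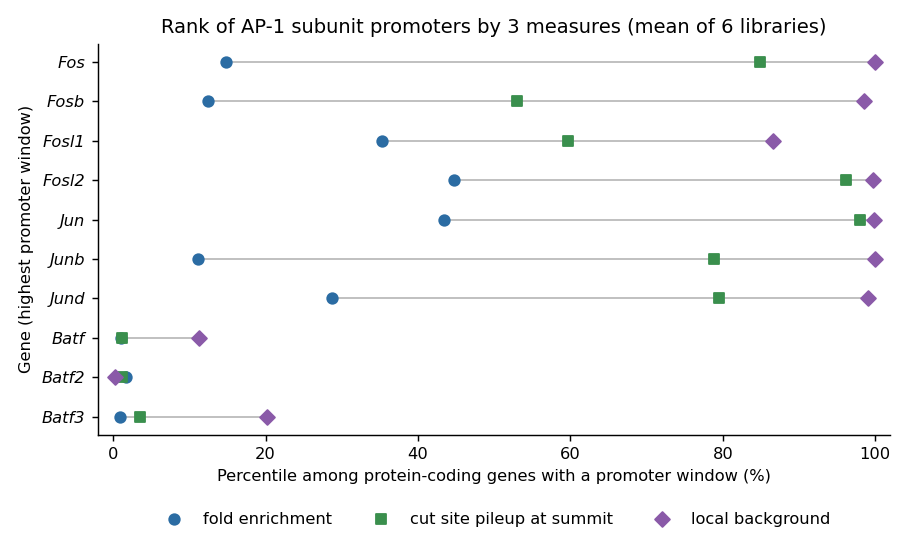
Percentile (horizontal axis, %) of each gene's highest promoter window among 14563 protein-coding genes, by fold enrichment (circles), pileup at the summit (squares) and local background (diamonds), from means over the 6 libraries. For the FOS and JUN genes the diamonds lie right of the squares and the squares right of the circles, and the BATF genes lie at the left.

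Open windows were dense around most of the FOS and JUN genes, but not around all of them. Per 10 kb, the locus of Junb held 3.58 windows, that of Fosb 3.56, that of Fosl1 3.07, and those of Fos and Fosl2 2.68 each, against a median of 1.11 over 21755 protein-coding genes. These densities stood at percentiles 99.9, 99.9, 99.2, 97.9 and 97.9. Jund (2.11, percentile 90.4), Batf3 (1.83, 82.5), Jun (1.74, 79.0), Batf (1.46, 67.1) and Batf2 (1.09, 49.3) followed, with Jun below Batf3. Other genes are close in several loci, since the Fosl1 locus held starts of 9 other genes, while the Fos locus held none. All 16 flanking windows of Fos therefore lay away from any other annotated start.

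In 8 of the 10 loci the highest flanking window stood above the promoter of the member gene. Around Jund, the highest was at the start of Lsm4, which encodes an RNA-binding subunit of the U6 particle, 25637 bp upstream (chr8:70673062-70673562), with 18.7, 22.8 and 21.7 in WT and 22.3, 19.7 and 23.9 in DKO. These overlapped (change 0.17 ± 0.14, limma adjusted p = 0.658). The window with an AP-1 site 16559 bp upstream of Jund, chosen after its values were seen, lay outside genes and was listed at 20.2, 22.4 and 22.5 in WT and 19.2, 20.6 and 19.3 in DKO. This overlap was also seen on the normalized scale, with a change of -0.018 ± 0.11 (limma adjusted p = 0.990).

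Fos had its highest flanking window 18397 bp upstream (chr12:85455243-85455743), with 15.04, 13.3 and 15.9 in WT and 13.1, 15.2 and 16.9 in DKO. The groups overlapped (change 0.17 ± 0.13, limma adjusted p = 0.591), and the window ranked between 681 and 2977 by p, far above the Fos promoter at 26208 to 30711. Closer in, the Fos window 1681 bp upstream (chr12:85471959-85472459) was listed at 5.25, 5.58 and 6.03 in WT and 7.05, 7.03 and 8.01 in DKO. All DKO libraries were higher there, with a change of 0.58 ± 0.19, an unadjusted limma p of 0.0106 and a limma adjusted p of 0.235. Its pileup was 137, 116 and 189 in WT and 157, 151 and 126 in DKO, and overlapped.

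Batf, whose promoter was barely listed, held a strong window in its intron, 11653 bp into the gene (chr12:85698072-85698572). Fold enrichment was 15.1, 12.8 and 20.8 in WT and 21.6, 18.3 and 16.4 in DKO. The deposited values overlapped and the normalized values did not, with a change of 0.36 ± 0.12, an unadjusted limma p of 0.0144 and a limma adjusted p of 0.268. The pileup changed by 0.48 (limma adjusted p = 0.245), so at this window both measures moved the same way. Its central bases are shown because the window is the highest of the locus. No AP-1 sequence was found among them.
Batf intron, chr12:85698262-85698382, plus strand: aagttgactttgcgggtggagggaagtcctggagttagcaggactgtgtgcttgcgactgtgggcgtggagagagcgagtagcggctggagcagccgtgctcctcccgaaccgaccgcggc

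The remaining highest flanking windows overlapped between genotypes on the normalized scale, apart from that of Fosl1. For Fosl1 it lay 24532 bp downstream of the start, outside genes (chr19:5471829-5472329), with 12.5, 8.22 and 13.1 in WT and 13.2, 13.8 and 12.7 in DKO. The deposited values overlapped, while the normalized values did not, and limma gave a change of 0.43 ± 0.12 (adjusted p = 0.189). Junb's was in a coding exon of Hook2 (mean 15.5), Fosb's in an intron of D830036C21Rik (mean 13.9), and Batf2's at the start of Sac3d1 (mean 17.7). Batf3's was in an intron of Nsl1 (mean 12.4). The deposited values at Sac3d1 and Nsl1 were lower in DKO without overlap. The highest flanking windows of Jun (mean 7.80, 26101 bp downstream) and Fosl2 (mean 6.75, the window with 2 AP-1 sites) were below the promoters of these genes.

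The kinds of flanking window were described apart. Windows at the starts of other genes numbered 39, windows in a member's gene body 20, and windows elsewhere 91. Their median changes were 0.17, 0.36 and 0.26. In the gene bodies 18 of 20 changes were positive (12 with no scaling between libraries and 14 for the pileup), against 51.4% of all windows. Of these 20 windows, 8 did not overlap between genotypes, all higher in DKO, as 8.76% of all windows were. Of the 14 listed in all 6 libraries, 14 were positive and 7 did not overlap, all higher in DKO. Of the 103986 such windows of the genome, 55531 were positive and 9.86% were higher in DKO without overlap. Of the 20, 4 were in Fosb, 4 in Fosl2, 3 each in Junb and Batf, 2 each in Fosl1 and Batf3, and 1 each in Fos and Batf2. The smallest p among them was that of the Batf intron.

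In all 150 flanking windows, 114 changes were positive, with a median of 0.23. Of the 111 farther than 1 kb from any start, 85 (76.6%) were positive with a median of 0.30, against 48.9% and -0.0084 over all such windows of the genome. Of the 39 at the starts of other genes, 29 (74.4%) were positive with a median of 0.17, against 63.9% and 0.085 over all windows within 1 kb of a start. None was called by limma over all windows (0 of 150). At an unadjusted limma p under 0.05, 18 flanking windows were higher and 4 were lower. These 22 became 14 without WT replicate 3, 15 with no scaling and 29 for the pileup. Together with the promoters, 19 of 166 windows (11.4%) were higher and 4 (2.41%) lower, to be read against the 5.68% and 6.1% of all windows. Values did not overlap, with DKO higher, in 37 of 166 windows (22.3%) against 8.76% of all windows, and with DKO lower in 2 (1.20%) against 7.67%. Some of these windows passed the filter through 1 genotype and hold filled values. Over the 107 AP-1 windows listed in all 6 libraries, 11 (10.3%) were higher at an unadjusted limma p under 0.05 and 0 lower, against 5.17% and 5.45% of the 103986 such windows of the genome. Values did not overlap in 28 of them (26.2%), all higher in DKO, against 9.86% higher and 7.95% lower in the genome, and the median change was 0.20 against 0.020. Windows of a locus share their surroundings and are not independent.

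By locus, the median change was 0.34 at Fosb, 0.32 at Jun and Batf, 0.30 at Batf3, 0.29 at Fosl2, 0.27 at Junb, 0.26 at Jund, 0.20 at Fos, 0.15 at Fosl1 and 0.13 at Batf2. These medians include windows with filled values. Over the windows listed in all 6 libraries they were 0.44 at Fosb (19 windows), 0.32 at Jun (7), 0.27 at Jund (8), 0.25 at Junb (18), 0.21 at Fos (14), 0.17 at Batf (6), 0.15 at Fosl1 (14), 0.14 at Fosl2 (10), 0.11 at Batf2 (7) and 0.029 at Batf3 (4), where 2 of the 4 were positive. Those of Batf, Batf3 and Fosl2 thus fell most when windows with filled values were left out. With no scaling the medians of Batf2 (-0.033) and Fosl1 (-0.039) over all windows of the loci were below 0, as were those of Fos (-0.088) and Fosl1 (-0.046) for the pileup. With no scaling, the median was 0.072 over the promoter windows and 0.026 over the flanking windows, where that of all windows was -0.14. At Fosb, 9 of 24 windows were higher in DKO without overlap, and at Fos 5 of 17, where 8.76% of all windows were. Lower without overlap were 1 at Fosb and 0 at Fos, where 7.67% of all windows were, and the 1 at Fosb is the window at Rtn2 described below, whose DKO values are filled in 2 libraries. Quantile normalization carries the rank by fold enrichment among the windows of a library into this comparison, and ranks by p can differ. With the p of the summits as the measure, all 10 medians were positive, but that of Fos was 0.0014 and those of Fosl1 and Jun were 0.042 and 0.076.

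**Figure D3:**
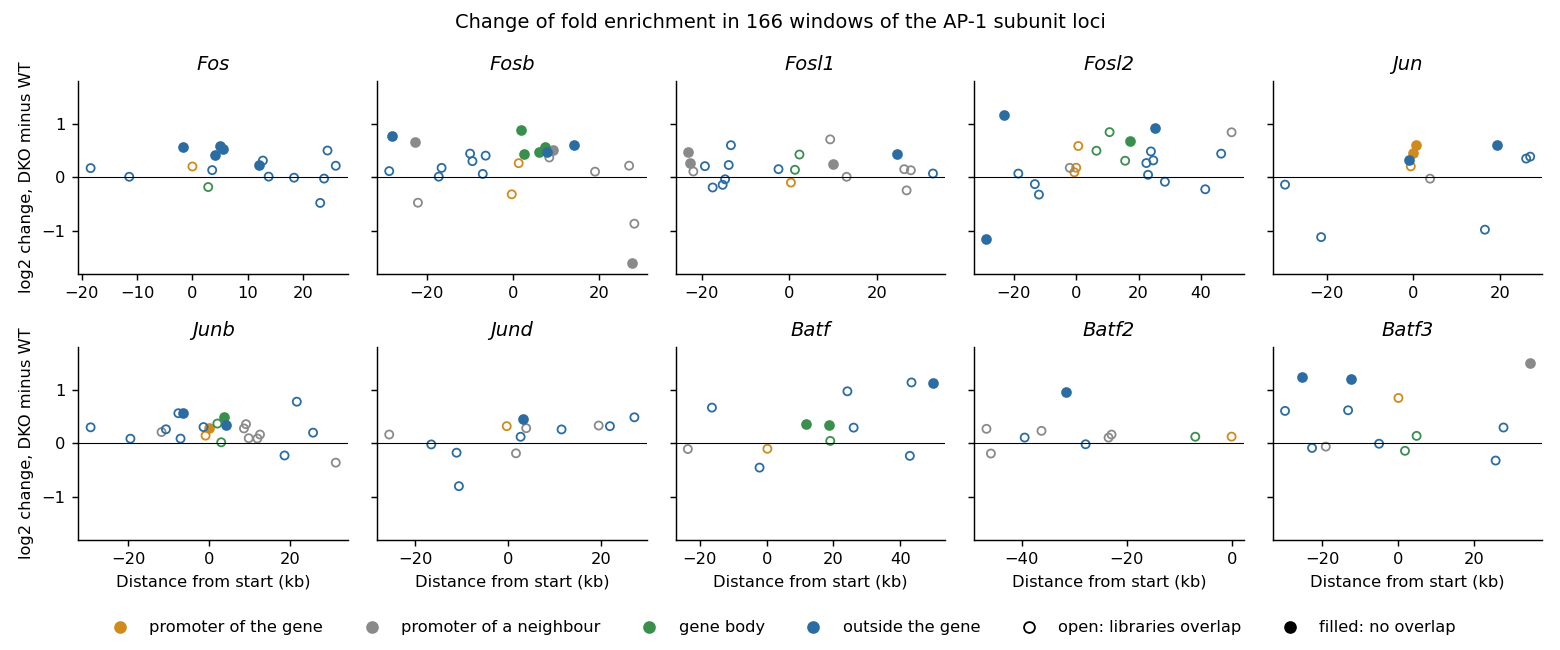
Log2 change of fold enrichment (vertical axis, DKO minus WT, normalized) of the 166 windows against distance from the start of the gene (horizontal axis, kb, in the direction of transcription), 1 panel a gene. Colours give the class of window, and filled points mark windows whose libraries did not overlap. Most points lie above 0 in every panel, with filled points mainly above it.

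The 3 windows listed in all libraries of one genotype and none of the other lay outside the gene bodies, far from the start of the gene and near the end of the lists. The window 34789 bp downstream of the Batf3 start, at the start of Gm38161 (chr1:191132864-191133364), was listed at 4.47, 4.25 and 3.60 in DKO with pileups of 15, 14 and 10. It was listed in no WT library. The window 31495 bp upstream of the Batf2 start (chr19:6132694-6133194) was listed at 2.39, 3.25 and 3.03 in DKO only. The annotated Batf2 gene body begins nearer to it, at chr19:6140983. The window 28795 bp upstream of Fosl2 (chr5:32106756-32107256) was listed at 3.02, 3.98 and 4.45 in WT only. These windows were kept through the genotype that lists them. The other genotype entered the fit only as the filled ends of its lists, so no p-value is given for them. All 3 are still among the flanking windows counted above at an unadjusted limma p under 0.05. The central bases at Gm38161 are shown since this window was listed in DKO alone.
Batf3, 34789 bp downstream, chr1:191133054-191133174, plus strand: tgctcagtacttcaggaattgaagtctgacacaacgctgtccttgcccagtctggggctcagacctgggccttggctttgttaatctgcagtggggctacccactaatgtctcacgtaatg

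Rtn2, a reticulon gene, had a window at its start, 27479 bp downstream of the Fosb start (chr7:19282322-19282822). It was listed at 7.61, 4.90 and 7.49 in WT and at 3.49 in DKO replicate 2 alone. It met the filter through WT and the other DKO values were filled, so no p-value is given. It is still among the 4 flanking windows counted above as lower. Of the other flanking windows with the smallest p of their locus, that of Jun, 19453 bp downstream, was higher in DKO without overlap on the normalized scale (change 0.61 ± 0.22, limma adjusted p = 0.293). Those of Junb, 7562 bp upstream (0.57 ± 0.36), and Jund, 10599 bp upstream (-0.80 ± 0.41, with DKO replicate 1 filled), overlapped. Without WT replicate 1 the change at Junb was 0.20, and without DKO replicate 1 that at Jund was -0.43.

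More of the best ranked summits of the DKO lists lay in the AP-1 loci. Of the 50000 summits with the smallest p in each library, the loci held 74, 77 and 76 in WT and 90, 84 and 93 in DKO. The groups did not overlap, with means of 75.7 ± 1.53 and 89.0 ± 4.58 (SD, n = 3; two-sided exact permutation p = 0.10, the smallest that 3 against 3 can give). Over all listed summits the counts given at the start overlapped (two-sided exact permutation p = 0.20). The loci of Fosb (11, 12 and 11 in WT, 15, 14 and 19 in DKO), Fosl2 (3, 3 and 3 against 5, 5 and 4), Junb (10, 10 and 9 against 12, 12 and 15) and Batf (2, 2 and 2 against 5, 4 and 4) did not overlap. Those of Fos (12, 15 and 15 against 14, 12 and 14), Fosl1, Jun, Jund, Batf2 and Batf3 did. Of 21755 loci of protein-coding genes made in the same way, 3.91% were higher in DKO without overlap and 1.94% lower, where 4 of the 10 AP-1 loci were higher and 0 lower. These shares cover every locus, also those with few or no such summits, which separate less easily. Most AP-1 loci were dense in windows, so the comparison is not with like loci.

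**Figure D4:**
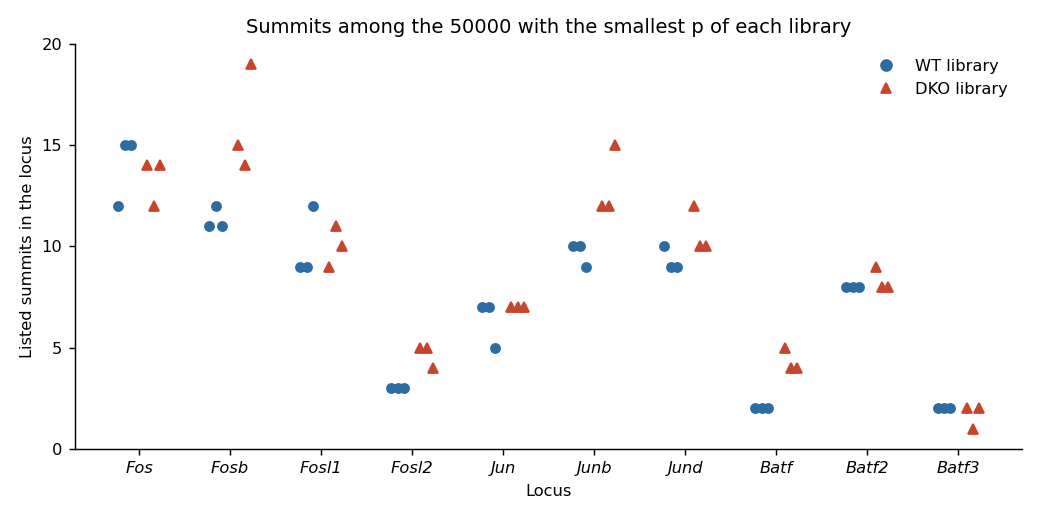
Number of summits in each locus (vertical axis) among the 50000 with the smallest p of each WT library (circles) and DKO library (triangles). Triangles stand above circles at Fosb, Fosl2, Junb and Batf, and mix with them at the other loci.

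Over all windows the change rose with the local background, and the AP-1 loci held many windows of high background. Over all windows the median change was -0.076 at a mean background of up to 2.7 cut sites, 0.021 from 2.7 to 5, 0.094 from 5 to 12, 0.17 from 12 to 20 and 0.25 above 20. A background over 12 was found in 51 of 166 AP-1 windows (30.7%) against 2.10% of all windows, and these were in the loci of Fos, Fosb, Fosl2, Jun, Junb and Jund. In those 51 windows the median change was 0.31 and 47 changes (92.2%) were positive, against a median of 0.18 and 83.8% positive over all 3764 windows with such a background. In the 5 ranges, from the lowest background to the highest, the AP-1 medians were 0.30, 0.072, 0.17, 0.28 and 0.36, and so did not rise throughout. The lowest range holds windows near the ends of the lists with filled values. Over the AP-1 windows listed in all 6 libraries the medians were 0.16 (12 windows), 0.098 (16), 0.17 (37), 0.29 (15) and 0.37 (27), against -0.090, 0.020, 0.092, 0.17 and 0.26 over all such windows of the genome. On the pileup scale, in which the background is no divisor, the medians were 0.071 for the promoter windows and 0.055 for the flanking windows, where all windows had a median of -0.0019. The part of the local background in the changes above was not tested, and the ranges were chosen after the values were seen.

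**Figure D5:**
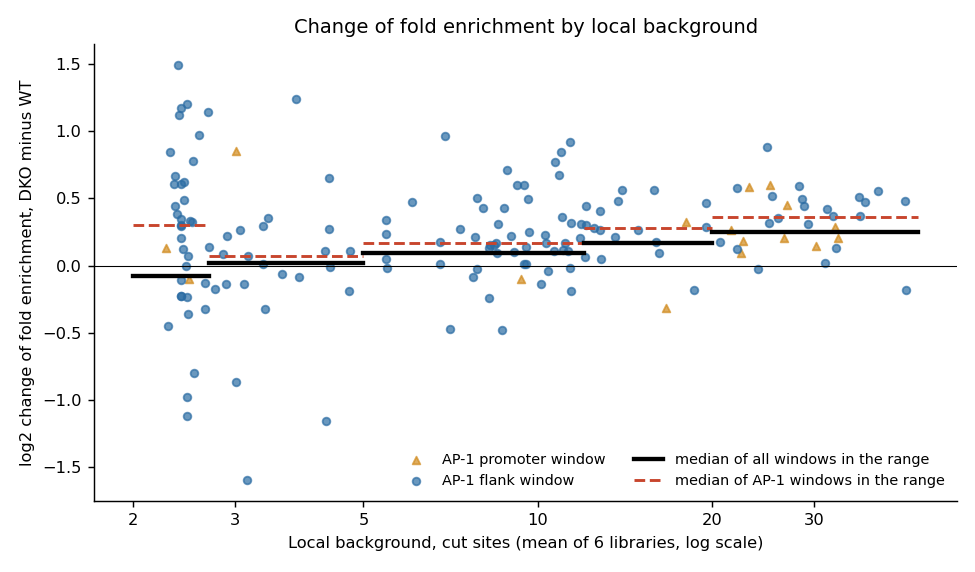
Log2 change of fold enrichment (vertical axis, DKO minus WT) of the AP-1 promoter windows (triangles) and flanking windows (circles) against mean local background (horizontal log axis, cut sites). Black bars give the median of all windows in each range and dashed bars that of the AP-1 windows. The black bars rise from -0.076 to 0.25, and the dashed bars lie above them in all 5 ranges.

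Windows with the AP-1 sequence had a median change of 0.072 (37 windows) and those without it 0.27 (129 windows), within the AP-1 loci. Over all windows of the genome these medians were 0.011 and 0.0096. The gap lay in the flanking windows farther than 1 kb from any start (0.070 in 29 windows and 0.32 in 82), while at the starts of other genes the medians were 0.16 (6 windows) and 0.17 (33). No test of these differences was made. The 3 sites upstream of Junb lay in a window listed between 6.04 and 7.53 in all libraries, with a change of 0.091 ± 0.16 (limma adjusted p = 0.864).

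Promoters of genes that work with AP-1 were open in nearly every library, and 0 windows of 3 lists were called by limma over all windows. Of 14 other leucine zipper genes that can pair with FOS or JUN proteins, all had a promoter window, with a median change of 0.041 and positive changes in 12, and 1, Maff, which encodes a small MAF protein, was higher at an unadjusted limma p under 0.05 (change 0.56 ± 0.14). Of 21 kinase and factor genes upstream of AP-1, 20 had one, with a median of 0.031 and positive changes in 12. Mapk3 (ERK1, change 0.63 ± 0.19), Map2k4 (a JNK kinase, 0.53 ± 0.18) and Mapk14 (p38, 0.28 ± 0.094) were higher by the same criterion. Of 16 known AP-1 target genes, all had one, with a median of 0.25 and positive changes in 12, and 1, Ccnd1 (cyclin D1, 0.56 ± 0.22), met the criterion. The medians of these lists depended on the measure, the scaling and the libraries used. That of the targets was 0.042 with no scaling, 0.082 ranked by p, -0.019 for the pileup and 0.14 without WT replicate 3. That of the leucine zipper genes was -0.12 with no scaling, -0.096 ranked by p and -0.087 for the pileup, and that of the upstream genes was -0.12 with no scaling, -0.0038 ranked by p and -0.035 without WT replicate 3. The counts at an unadjusted limma p under 0.05 also moved. For the upstream genes the 3 became 0 with no scaling, 1 without a mean-variance trend and 4 ranked by p. For the targets the 1 became 0 with no scaling or without WT replicate 1, and 4 without WT replicate 2. Over all 14563 protein-coding genes with a promoter window the median was 0.068 and 64.4% of changes were positive, with 7 called, 1375 higher and 391 lower by the unadjusted criterion.

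Markers were checked by promoter windows. Of 10 preadipocyte genes 9 had one, of which 8 or 9 were listed in each library. Their summed fold enrichment ranged from 47.0 to 59.9 in WT and from 44.5 to 53.2 in DKO. The deposited values of Pdgfrb were lower in DKO without overlap (normalized change -0.093 ± 0.17, limma adjusted p = 0.863). Of 5 adipocyte genes only Fabp4 had one, while Adipoq, Plin1, Cidec and Lep had none. The deposited values of Fabp4 were lower in DKO without overlap, with 17.4, 15.9 and 17.4 in WT and 13.6, 14.2 and 12.9 in DKO (normalized change -0.17 ± 0.11, limma adjusted p = 0.489). Of 5 endothelial genes 4 had one (sums 33.3 to 42.1 in WT and 33.5 to 40.3 in DKO), as did 4 of 5 immune genes (18.9 to 24.8 and 18.1 to 23.5), with none at Ptprc, and 2 of 4 epithelial genes (5.84 to 10.6 and 3.40 to 9.39). The endothelial sums cover 3 listed genes in each WT library and 4 in each DKO library, so they are not of like genes. Immune sums cover 3 in each WT library and 4, 4 and 3 in DKO, and epithelial sums 1 or 2. Adgre1 was listed in DKO replicates 1 and 2 only (3.91 and 3.40). Deposited values of Cd68 were higher in DKO without overlap (normalized change 0.35 ± 0.21). The endothelial genes did not move together. Cdh5 was listed in the 3 DKO libraries only (3.91, 7.09 and 4.26), while the deposited values of Pecam1 (16.9, 12.2 and 17.2 in WT, 11.1, 11.8 and 10.3 in DKO) and Tek were lower in DKO without overlap and those of Kdr overlapped. The normalized changes were -0.31 ± 0.11 at Pecam1 (limma adjusted p = 0.297) and -0.069 ± 0.12 at Tek (limma adjusted p = 0.856). Unscaled values were lower in DKO over all windows (median change -0.14), and their share without overlap was not counted. An open promoter does not show expression, and the part of other cell types in the changes was not tested.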

How the data were processed

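ATAC-seq of 3 WT and 3 DKO libraries was used as peak lists deposited for each library. Per the labels and the study's methods, the authors trimmed reads with cutadapt 1.18, aligned them to mm10 with Bowtie2 2.3.4.3, removed duplicate and mitochondrial reads, and called peaks with MACS2 per library, without pooling replicates. The file names give a p of 0.01 and a limit of 300000 peaks, while the methods give default settings. The MACS2 version and blacklist were not given in the sources used here. The deposited values are a ratio (fold enrichment over local background) and the −log10 of p and of q.

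The lists held 299433 to 299620 summits, ending at −log10 p between 3.54 (DKO replicate 3) and 5.63 (WT replicate 3), and the commonest background was 2.05 to 2.58 cut sites, lowest in DKO replicate 3. Read totals were not analysed here, so depth in reads is unknown. Pileup and background were recovered from fold enrichment and p with the Poisson model of MACS2, and the pileups came out whole within 0.001 for 100% of summits.

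Windows reaching 250 bp to either side were centred on summits, best ranked first, and kept if at least 2 libraries had a summit with q under 0.01 (chromosomes 1 to 19 and X). The value was the highest fold enrichment, or the lowest of the list where none was listed, and these filled values enter the tests. Log2 values were quantile-normalized and compared with limma 3.58.1 in R 4.3.3 (trend, two-sided, genotype only), p-values being adjusted by Benjamini-Hochberg for every window of the genome (threshold 0.05). Single counts were compared by exact permutation. Overlap between genotypes in counts of windows refers to normalized values. Annotation was GENCODE M21 (basic set), and pysam 0.24.0 read sequences from GRCm38, in which no peak ended beyond a chromosome.

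The text names each promoter window, for each gene the highest flanking window and that with the smallest p, and windows listed in one genotype only. The members and gene lists were chosen with earlier results of these data known. Alternatives were the window width and span, filters, scaling, measure, variance model, a replicate block and leaving out each library.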

Additional observations from a re-analysis of the deposited data

How the results depend on the processing

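Calls by limma in the AP-1 loci were 0 for promoter and flanking windows with each library left out in turn (0 to 0) and under the other alternatives, except that 1 flanking window was called under 2 of them. With the 50000 best summits of each list it was the one 22873 bp upstream of Fosb, whose WT summits all rank outside that limit, so that its WT values are filled and its deposited values overlap. Without a mean-variance trend it was the one 34789 bp downstream of Batf3, listed in DKO alone. Both windows passed through the genotype in which they are high, and neither call is evidence of a change. The replicate numbers did not pair the libraries, as the deviations of same-numbered libraries correlated at 0.0054, -0.011 and -0.0071 across windows. With the replicate block limma called 0 AP-1 windows (107 became 0 of all windows). The medians of 0.20 and 0.23 could not change, since each replicate number holds a library of each genotype.

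The median change of the flanking windows moved from 0.23 to 0.15 with no filter on windows, 0.14 with a summit in all 6 libraries, 0.055 for the summit pileup and 0.026 with no scaling, where the median of all windows was -0.14. That of the promoter windows moved from 0.20 to 0.55 with the 50000 best summits (9 windows) and to 0.015 where only the 4 windows with a background up to 12 were kept, an alternative added after the values were seen. Leaving out libraries gave 0.11 (WT replicate 3 left out) to 0.35 (WT replicate 2 left out) for promoter and 0.18 to 0.27 for flanking windows. A span of 10 kb held 87 windows and one of 100 kb held 436. The 50000 best summits of each list put 494 in the loci, against 1966 over the whole lists.

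Of the 23 named windows listed in all 6 libraries, 14 kept their direction under every alternative that gave a value, but the size of the change, which passed the threshold in none, moved by over 1.5 times in 16 on leaving out a library, in 19 with no scaling, in 18 for the summit pileup and in 13 ranked by p. For the summit pileup the change turned to -0.15 at the Fos start, -0.088 at Fos 18397 bp upstream, -0.040 at Fosb 17260 bp upstream, -0.0061 at Fosl2 599 bp upstream, -0.076 at Jun 573 bp upstream and 0.054 at Batf3 22612 bp upstream. Ranked by p it turned to -0.026 at that Fos window and -0.055 at that Fosb window. With no scaling it turned to -0.14 at that Fosb window, -0.087 at that Fosl2 window, -0.044 at Junb 19411 bp upstream and -0.0072 at Junb 833 bp upstream, and with median centring to 0.039 at Batf. Leaving out libraries gave -0.013 to 0.061 at that Fosb window, -0.0067 to 0.15 at that Fosl2 window and -0.0011 to 0.76 at Jun 26101 bp downstream. The Batf and Batf2 promoter windows hold filled values and are not among the 23. There, leaving out libraries gave -0.43 to 0.55 at Batf2 and -0.46 to 0.35 at Batf, and median centring gave 0.039 at Batf. The cause was not tested. Depth in reads is unknown, and summits near the end of their list, as at the BATF promoters, cannot be compared.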
